A study of Mus musculus with 2 samples.

Results

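Myosin light chains and myosin-binding proteins are the small and accessory partners of the myosin heavy chain in the thick filament of muscle. Their genes were chosen by name, and 10 of the 34745 genes in the table are described here: the essential light chains Myl1, Myl3, Myl4 and Myl6b, the regulatory light chains Mylpf and Myl2, the skeletal muscle light chain kinase Mylk2, and the binding proteins Mybpc1, Mybpc2 and Mybph. All 10 were found once in the table, and all 10 reached the expression minimum of a mean of 1 CPM (counts per 1e6 counts of a library, after scaling).

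Total RNA of the gastrocnemius, a calf muscle, was sequenced from mice as 1 library per genotype. The control was TECRLflox/flox, called flox here, which carries the conditional Tecrl allele without a stated Cre. TECRLscko, called scko here, carries the same allele together with Cre from the Pax7 locus, which is active in the muscle stem cells called satellite cells, so that fibers are reached through the Pax7-expressing cells that form or join them. Neither age, sex, injury, treatment, time nor how many mice gave a library is stated in the labels. With 1 library per group there is no spread between mice, no test was made, and every interval below is a 95% interval that covers counting error only.

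Each myosin head carries an essential and a regulatory light chain on its lever arm, and both come in fast and slow versions that accompany the fast and slow heavy chains of a fiber. Calcium and calmodulin activate Mylk2, which phosphorylates the fast regulatory light chain and so raises force at a given calcium level. Myosin-binding protein C forms stripes along the thick filament on both sides of its bare centre and tunes how readily heads reach actin, and protein H is a shorter relative that binds the same region.

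Depth came to 19281017 counts for flox and 16946124 counts for scko. The targeted gene Tecrl had 3 counts in flox and 4 in the scko library, so the deletion could not be checked in whole muscle. The 6 defining markers of skeletal muscle fibers were present in both libraries, with a summed level of 71543 CPM in flox and 61218 CPM in the scko library. The heart-defining genes Nppa, Myl7 and Mybpc3 had 0 counts in both libraries, where 3 counts, the limit a count of 0 allows, correspond to 0.152 CPM in flox and 0.181 CPM in the scko library; all 6 heart markers listed summed to 5.98 and 7.07 CPM. Mitochondrially encoded genes took 17.01% of counts in flox and 23.07% in the scko library. Genes with long transcripts tended to stand higher in scko, with a median log2 ratio of 0.33 for the 10% longest and -0.17 for the 10% shortest, so values after a lowess correction on transcript length and GC content are given as well, called corrected.

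The 250 bases before the start site are shown for 4 members: Mybph, which stood furthest below flox, Myl6b, which stood furthest above it, and the slow and fast binding proteins C, Mybpc1 and Mybpc2, whose balance differed between the libraries. The sequences are from RefSeq (GRCm38.p6), where 9 of the 10 members have a window, 5′ to 3′ on the strand of the gene. Capitals mark an E-box (CANNTG), the site of MyoD-family factors, and an MCAT element (CATTCC or its reverse complement), the site of TEAD factors.
Mybph, chr1:134193198-134193447, plus strand: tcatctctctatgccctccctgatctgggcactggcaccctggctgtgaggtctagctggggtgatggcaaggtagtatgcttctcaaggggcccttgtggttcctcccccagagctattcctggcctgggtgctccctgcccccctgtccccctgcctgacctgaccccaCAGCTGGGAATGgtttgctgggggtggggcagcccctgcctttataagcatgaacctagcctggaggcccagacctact
Myl6b, chr10:128498686-128498935, minus strand: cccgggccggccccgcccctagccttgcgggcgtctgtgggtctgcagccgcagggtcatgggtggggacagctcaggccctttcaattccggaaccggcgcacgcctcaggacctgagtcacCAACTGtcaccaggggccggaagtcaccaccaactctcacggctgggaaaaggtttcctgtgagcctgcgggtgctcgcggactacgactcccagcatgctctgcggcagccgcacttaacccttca
Mybpc1, chr10:88605153-88605402, minus strand: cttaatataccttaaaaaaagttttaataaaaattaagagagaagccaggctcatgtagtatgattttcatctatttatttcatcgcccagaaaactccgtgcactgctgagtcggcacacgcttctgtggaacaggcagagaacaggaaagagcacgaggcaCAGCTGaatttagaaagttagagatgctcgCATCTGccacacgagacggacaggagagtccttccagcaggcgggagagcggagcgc
Mybpc2, chr7:44524670-44524919, minus strand: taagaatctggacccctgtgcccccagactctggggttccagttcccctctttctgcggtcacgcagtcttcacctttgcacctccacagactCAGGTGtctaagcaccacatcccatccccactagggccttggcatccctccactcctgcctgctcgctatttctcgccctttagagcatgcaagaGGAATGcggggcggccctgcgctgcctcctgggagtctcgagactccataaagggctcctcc

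In the Mybph window an E-box of the form CAGCTG at -79 from the start site runs directly into an MCAT element at -73, and a TATA match (TATAAA or its reverse complement, both strands searched) lies at -39. Mybpc1 has a CAGCTG E-box at -87 and another E-box at -57, and no MCAT element. Mybpc2 has an E-box at -157 and an MCAT element at -62, and Myl6b has an E-box at -127 alone. Of 32851 annotated mouse promoter windows of the same 250 bases, 66.2% hold an E-box of any form, 13.0% a CAGCTG E-box, 12.6% an MCAT element and 12.4% a TATA match. No match to the MEF2 consensus was found in these 4 windows, against 2.92% of all windows, and a match or its absence describes these letters only.

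Before correction, the slow members stood above flox and the fast members below it, Myl1 by 1.24-fold and Mylpf and Mybpc2 by 1.05-fold and 1.06-fold. Mybph was far lower than any of them. Only Myl6b was at least 1.5-fold higher and only Mybph 1.5-fold or more lower by the plain CPM ratio; the other 8 lay within 1.5-fold. Of the 12559 genes past the expression minimum, 10.5% reached 1.5-fold on the higher side and 4.94% on the lower side, so that 1 of 10 members on each side is near the background. The median log2 ratio over the 10 members was 0.01, beside -0.02 over all genes compared. The 4 slow members, Myl3, Myl6b, Myl2 and Mybpc1, had a median of 0.54 and all 4 were above flox, as were 48.2% of all genes compared. The 3 fast members, Myl1, Mylpf and Mybpc2, had a median of -0.08 and all 3 were below it, as were 51.8% of all genes. Once corrected, the fast median was -0.0025, with Myl1 at -0.13, Mybpc2 at -0.0025 and Mylpf at 0.15. The corrected slow median was 0.64. With corrected values 2 members reached 1.5-fold on the higher side and 1 on the lower, beside 4.63% and 3.68% of all genes. In bulk muscle, a different number of fibers of a type and a different amount of RNA per fiber cannot be told apart.

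**Figure D1:**
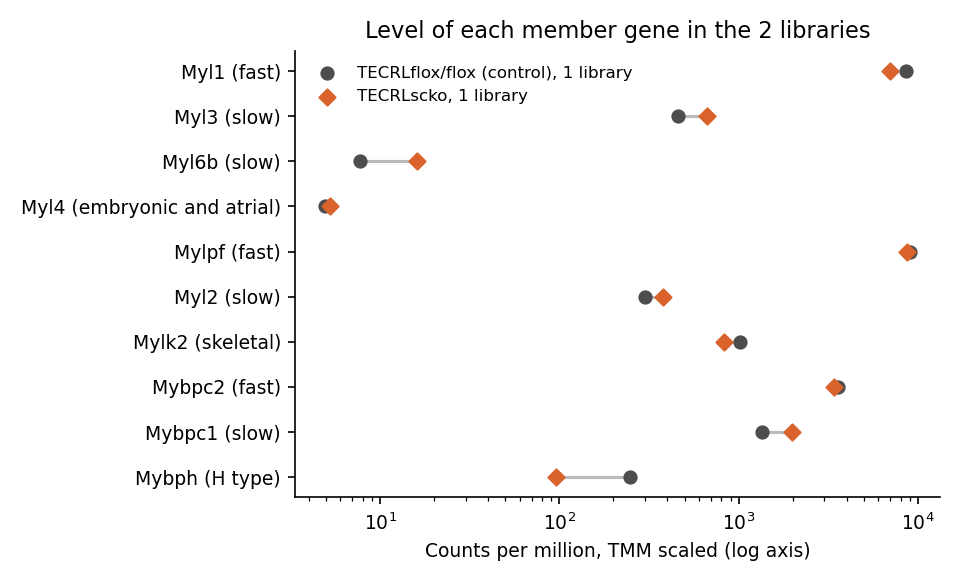
Level of each member in CPM on a log axis, with 1 point per library; no error is shown because each group has 1 library. Mylpf and Myl1 have the most counts, between 6918 and 9048 CPM, Myl6b and Myl4 lie at 16.1 CPM or less, and the Mybph pair is the widest apart, at 247 and 95.4 CPM.

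Among the essential light chains, the fast Myl1 (ENSMUSG00000061816, chromosome 1, 66924295 to 66945404, GRCm38) had 168805 counts in flox and 114529 in the scko library, or 8553 and 6918 CPM. It was 1.24-fold lower in scko (interval 1.23 to 1.25), a log2 ratio of -0.31 that came to -0.13 after the correction. Myl1 is read from different start sites into a long and a short light chain, which a count per gene does not separate.

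The slow and ventricular essential light chain Myl3 (ENSMUSG00000059741, chromosome 9, 110741861 to 110769798) had 9017 counts in flox and 11004 in the scko library, or 457 and 665 CPM. It was 1.46-fold higher in the scko library (1.41 to 1.496), and its log2 ratio of 0.54 became 0.76 after the correction. Pth1r, the gene that overlaps it on the other strand, had 43 and 23 counts, under 1% of the Myl3 count in either library.

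Myl6b (ENSMUSG00000039824, chromosome 10, 128494157 to 128498685), a light chain of slow muscle that other tissues also make, had 152 counts in flox and 266 in the scko library, or 7.70 and 16.1 CPM. Its ratio of 2.09 was the highest of the members, with an interval of 1.70 to 2.56, and 275 of the 12559 genes compared had a log2 ratio at least as high. By FPKM it was the lowest of the members but for Myl4, at 7.68 and 15.3, and the log2 ratio of 1.01 became 1.26 after the correction.

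Myl4 (ENSMUSG00000061086, chromosome 11, 104550663 to 104595753), the light chain of embryonic muscle and of the cardiac atria, had 97 counts in flox and 87 in the scko library. The interval of its ratio of 1.07 ran from 0.791 to 1.44, and no difference was detectable at this depth. The summed count of 3 small gene models on the other strand within its bounds was at most 7 in a library. The largest, Gm22000, had 4 counts in flox and 5 in the scko library, 4.12% and 5.75% of the Myl4 count.

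The fast regulatory light chain Mylpf (ENSMUSG00000030672, chromosome 7, 127208890 to 127214298) was the member with the most counts, 178586 in flox and 143276 in the scko library. At 9048 and 8655 CPM the libraries differed by a ratio of 0.957 (0.9499 to 0.963), a log2 ratio of -0.06 that became 0.15 after the correction. Its slow and ventricular counterpart Myl2 (ENSMUSG00000013936, chromosome 5, 122100951 to 122113472) had 5902 and 6217 counts, or 299 and 376 CPM. Myl2 was 1.26-fold higher in the scko library (1.21 to 1.302), with a log2 ratio of 0.33 that became 0.52 after the correction. Of the 4 slow members it was the closest to flox, whereas by corrected values Mybpc1, at 0.49, was.

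The kinase of the regulatory light chain, Mylk2 (ENSMUSG00000027470, chromosome 2, 152911352 to 152923068), had 19902 counts in flox and 13594 in the scko library, or 1008 and 821 CPM. It was 1.23-fold lower (1.20 to 1.26), and the log2 ratio of -0.30 came to -0.13 after the correction. Relative to its substrate Mylpf, Mylk2 was at 0.851 of the flox ratio (0.832 to 0.871).

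Among the binding proteins, the fast Mybpc2 (ENSMUSG00000038670, chromosome 7, 44501699 to 44524656) had 70588 and 56037 counts, or 3576 CPM in flox and 3385 CPM in the scko library. Its ratio was 0.947 (0.936 to 0.957) and its log2 ratio of -0.08 became 0.00 after the correction. The slow Mybpc1 (ENSMUSG00000020061, chromosome 10, 88518279 to 88605152), which fast fibers also contain, had 26671 and 32614 counts, or 1351 and 1970 CPM. Mybpc1 was 1.46-fold higher in the scko library (1.43 to 1.48), and its log2 ratio of 0.54 came to 0.49 after the correction.

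Mybph (ENSMUSG00000042451, chromosome 1, 134193448 to 134201232), whose promoter is printed above, had 4880 counts in flox and 1580 in the scko library, or 247 and 95.4 CPM. It was 2.59-fold lower in the scko library (2.45 to 2.74), a log2 ratio of -1.37 that came to -1.15 after the correction. Of the 630 other genes with a mean CPM at least that of Mybph, 0 had a log2 ratio as low, and 37 of all 12559 genes compared, Mybph included, did. The overlapping Adora1 on the other strand had 17 and 12 counts, under 1% of the Mybph count in either library. Relative to Mybpc2, Mybph was at 0.408 of the flox ratio (0.385 to 0.432), and relative to Mybpc1 at 0.265 (0.250 to 0.281).

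Genes of developing or regenerating fibers are given beside Mybph, since 3 of the 4 listed stood below flox. On that side were also 51.8% of all genes compared. Of the 4, 2 were 1.5-fold lower and 1 was 1.5-fold higher, beside 4.94% and 10.5% of all genes. Corrected, 1 was lower and 1 higher, beside 3.68% and 4.63%. Actc1, the cardiac and fetal actin, was at 894 CPM in flox and 380 CPM in the scko library, 2.35-fold lower (2.29 to 2.42). Myog, the differentiation factor myogenin, had a ratio of 0.647 (0.511 to 0.815), and perinatal Myh8 one of 0.715 (0.483 to 1.05). Embryonic Myh3 stood on the other side at 1.79 (1.32 to 2.44). The summed level of these 4 was 913 CPM in flox and 396 CPM in the scko library, nearly all of it Actc1, and their part in the Mybph difference was not tested.

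**Figure D2:**
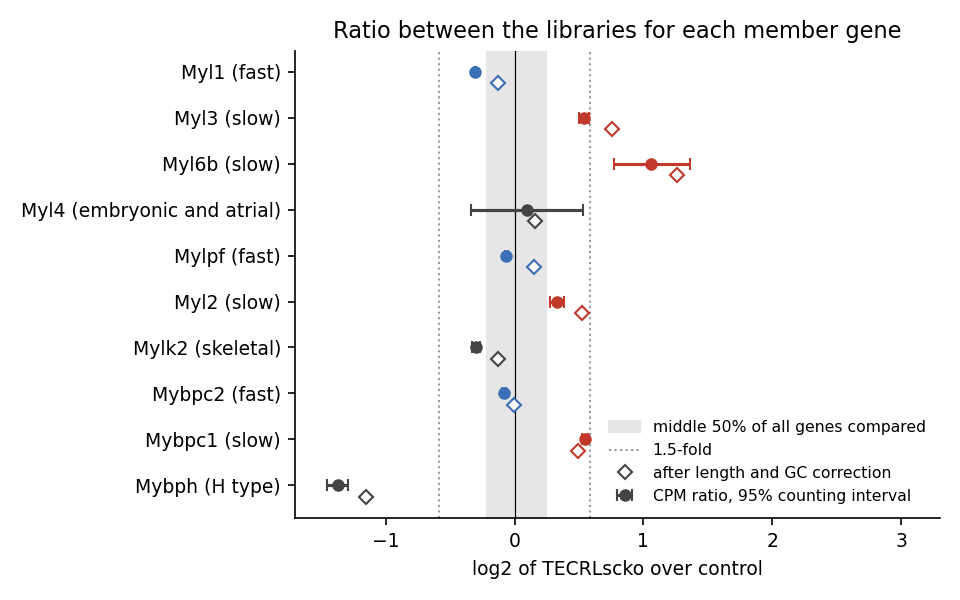
Log2 of the scko to flox CPM ratio for each member, as filled circles with 95% counting intervals and as open diamonds when corrected for length and GC content; blue marks fast, red slow and black other members. The 4 slow genes lie to the right of 0, Mybph lies alone beyond 1.5-fold on the left, and the Mylpf diamond (0.15) is on the other side of 0 from its circle (-0.06).

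The number of slow per fast counts within a library depends on gene length, but in the comparison of that ratio between the libraries gene length and library scaling cancel, apart from the trends with length and GC content. Per 100 counts of Myl1 there were 5.34 counts of Myl3 in flox and 9.61 in the scko library, a 1.80-fold higher ratio (1.75 to 1.85). Per 100 counts of Mybpc2 there were 37.8 counts of Mybpc1 in flox and 58.2 in the scko library, a 1.54-fold higher ratio (1.51 to 1.57) that came to 1.41 after the correction. Per 100 counts of Mylpf there were 3.31 counts of Myl2 in flox and 4.34 in the scko library, a 1.31-fold higher ratio (1.27 to 1.36). All 3 pairs thus differed in the same direction, with intervals that did not overlap each other.

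Myl3, Myl2 and Mybpc1 differed between the libraries by less than the slow heavy chain, and Myl6b did not. Myh7, which pairs with Myl3 and Myl2 in slow fibers, was at 437 CPM in flox and 910 CPM in the scko library, a ratio of 2.09 (2.03 to 2.14), and its ratio to the fast heavy chain Myh4 was 2.10-fold higher (2.05 to 2.16). Relative to Myh7, Myl3 was at 0.698 of the flox ratio (0.671 to 0.725), Mybpc1 at 0.699 (0.678 to 0.721) and Myl2 at 0.602 (0.576 to 0.630). The correction, which acts on the short light chains and the long heavy chain in opposite ways, brought these to 0.871, 0.724 and 0.739, so the gap was narrower but kept its side. Myl6b relative to Myh7 was at 1.001 of the flox ratio (0.818 to 1.22), and at 1.23 after the correction. The ratio of Myl3 to Myl2 itself was 1.16-fold higher in the scko library (1.11 to 1.21).

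**Figure D3:**
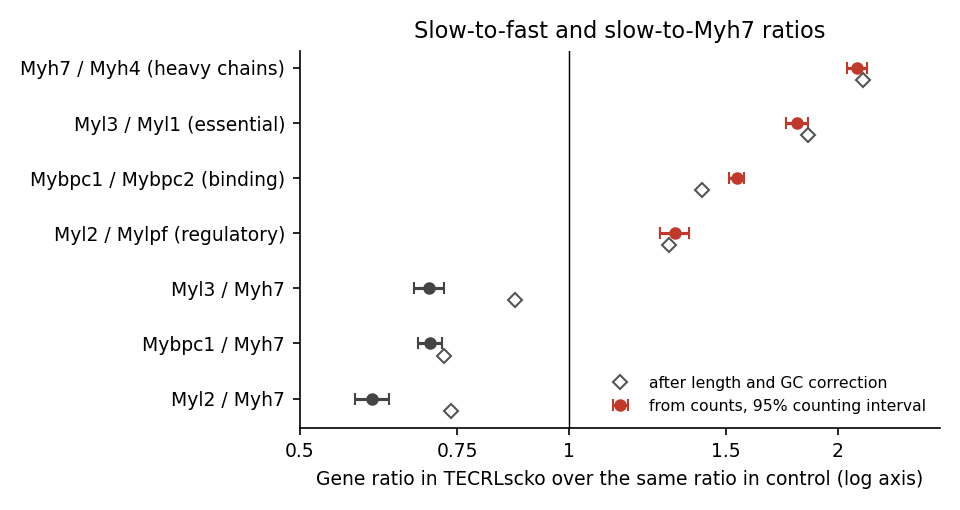
Ratio of the genes in each pair in the scko library over the same ratio in flox, on a log axis, from counts with 95% counting intervals (filled) and when corrected for length and GC content (open). The heavy chain pair stands highest at 2.10, followed by Myl3 to Myl1 (1.80), Mybpc1 to Mybpc2 (1.54) and Myl2 to Mylpf (1.31), and Myl3, Mybpc1 and Myl2 lie under 1 relative to Myh7; Myl6b is not drawn.

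Shares within a family were taken from the deposited FPKM values, which are per length. Fast genes held most of each family in both libraries. Myl1 made up 93.5% of essential light chain FPKM in flox and 88.8% in the scko library, and Myl3 made up 6.16% and 10.5%. The shares of Myl6b were 0.273% and 0.669%, and those of Myl4 0.0321% and 0.0403%. Mylpf held 98.1% of regulatory light chain FPKM in flox and 97.6% in the scko library, with Myl2 at 1.87% and 2.44%.

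Among the binding proteins, Mybpc2 held 75.3% of FPKM in flox and 70.9% in the scko library. Mybpc1 held 18.4% and 26.6%, and Mybph 6.398% and 2.46%. FPKM carry no counting interval; by counts alone, which are not per length, Mybph took 4.78% of its family in flox (Wilson interval 4.65 to 4.91) and 1.75% in the scko library (1.67 to 1.84). The length behind an FPKM value ranged from equal to that of the principal transcript to 5.90 times as long for Myl4, and a longer assumed length gives a lower FPKM for the same count. Per principal transcript, a choice made after the values were seen, Myl3 held 4.37% and 7.59%, Myl2 2.77% and 3.60%, and Mybpc1 23.9% and 33.9%, in the same direction as with FPKM. On that scale the share of Myl6b, 0.0673% and 0.168%, was lower than with FPKM. That of Myl4, 0.0467% and 0.0596%, was higher than with FPKM.

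**Figure D4:**
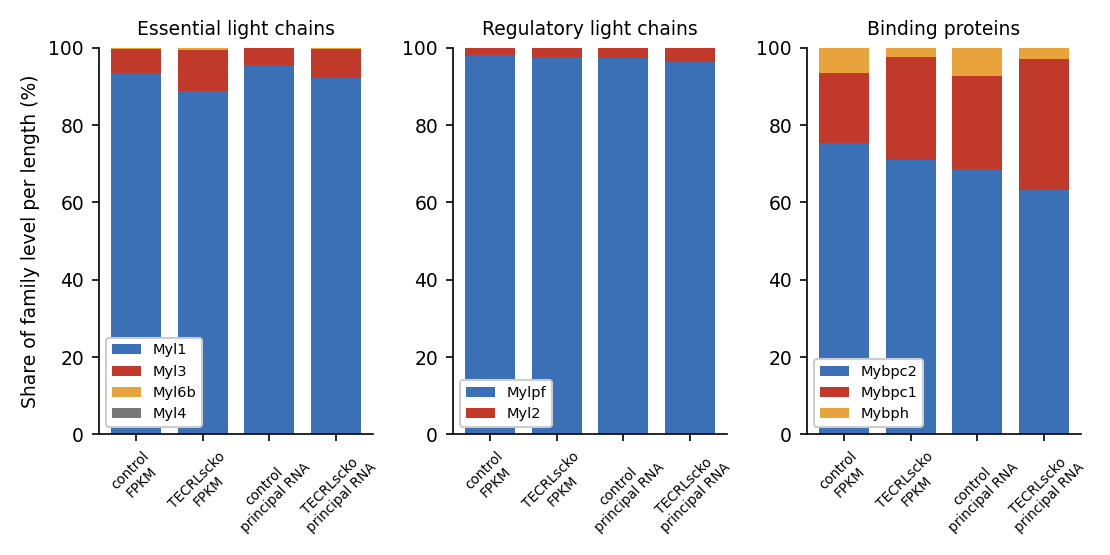
Share of each member in the summed level of its family, in percent, per library, from deposited FPKM and from counts per length of the principal transcript. The fast gene fills most of every bar; the slow share is larger in the scko bar of each pair, and the Mybph segment is smaller, at 2.46% against 6.398% by FPKM.

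Summed over a family, essential light chains were at 9022 CPM in flox and 7604 CPM in the scko library, a ratio of 0.843 (0.837 to 0.849). Regulatory light chains summed to 9347 and 9031 CPM, a ratio of 0.966 (0.960 to 0.973). The adult heavy chains Myh1, Myh2, Myh4 and Myh7 summed to a ratio of 1.081 (1.077 to 1.085), and Mybpc1 with Mybpc2 to 1.09 (1.08 to 1.10). The abundant fast light chains were uneven: Myl1 relative to Mylpf was at 0.846 of the flox ratio (0.837 to 0.854), and at 0.823 after the correction, although both are among the 10% of genes with the shortest transcripts.

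**Figure D5:**
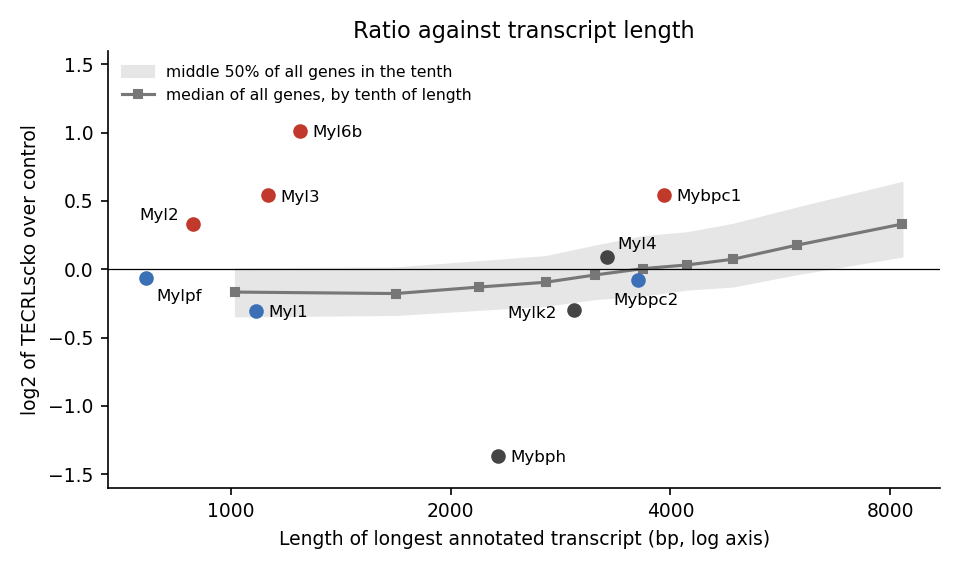
Log2 ratio of each member against the length of its longest annotated transcript on a log axis, over the median (squares) and the middle 50% (grey) of all genes in 10 length bins of equal gene number. The slow members Myl2, Myl3, Myl6b and Mybpc1 lie above the grey band. Mybph and Mylk2 lie below it, at -1.37 and -0.30, and Myl1 and Mybpc2 lie within it.

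Other genes of light chain regulation mostly lay within 1.5-fold. Of 18 listed light chains, kinases, calmodulins, phosphatase subunits and binding proteins outside the 10, 14 reached the expression minimum. Over these 14 the median log2 ratio was -0.05. At least 1.5-fold higher was 1 and 1.5-fold lower were 0, beside 10.5% and 4.94% of all genes compared. The 1 was Ppp1r12a, the targeting subunit of myosin phosphatase in smooth and nonmuscle cells, with 135 counts in flox and 247 in the scko library and a ratio of 2.18 (1.76 to 2.71). The log2 ratio of Ppp1r12a, 1.07, came to 0.66 after the correction. The phosphatase catalytic subunit Ppp1cb had a log2 ratio of 0.27, which turned to -0.17 after the correction. The calmodulin genes Calm2 and Calm3 stood at -0.31 and -0.25, and at -0.32 and -0.02 after the correction. The smooth muscle light chain Myl9 stood at -0.47 and the nonmuscle Myl12b at -0.16, and these came to -0.19 and 0.02 after the correction. Smooth muscle markers as a list had a median of 0.16 over 6 genes, with 0 at 1.5-fold in either direction.

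Of 9 sarcomeric heavy chain genes, 5 were at least 1.5-fold higher and 0 lower, with a median log2 ratio of 0.57, beside 10.5% of all genes higher. Of the 5, Myh7b, Myh3 and Myh6 were at 8.46 CPM or less in both libraries, and Myh7 and Myh2 at 437 CPM or more. Corrected, 3 of the 9 were at least 1.5-fold higher, beside 4.63% of all genes. Myh2, at a corrected log2 ratio of 0.58, and Myh6, at 0.48, no longer were. Besides Myh7, the slow-type Myh7b stood at 1.18, Myh3 at 0.76, Myh2 of fast oxidative fibers at 0.70, Myh1 at 0.39 and Myh4 at -0.01. Of 4 listed tendon genes, 3 were at least 1.5-fold higher, on the side of the slow members, beside 10.5% of all genes. The other, Scx, had a ratio of 1.02 (0.670 to 1.53). The list summed to 53.6 CPM in flox and 84.1 CPM in the scko library, most of it Fmod, at 46.3 and 71.9 CPM. The part of tendon genes in the slow difference was not tested.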

How the data were processed

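Per the file headers, the table gives counts and FPKM of every gene for both libraries. The deposited counts are whole numbers without normalization, and the authors' FPKM values are counts per gene length and library total. CASAVA, HISAT2 2.0.4, StringTie 1.3.0 and GRCm38 are named per the submitters' processing notes, with no role. How reads were counted, and whether by strand, is not given in the sources used here, so antisense overlaps cannot be told apart. Lengths, GC content and strands come from GENCODE M21 (GRCm38).

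Library sizes were adjusted by TMM in edgeR 4.0.16 under R 4.3.3, with factors of 1.02 (flox) and 0.977 (scko). Folds are plain CPM ratios with exact Clopper-Pearson intervals, and log2 ratios add 0.5 CPM to both sides. Ratios of gene pairs have intervals from the log odds ratio, and count shares have Wilson intervals. The correction subtracts lowess curves (span 0.3, statsmodels 0.14.6) on log length and then on GC content. Without molecular identifiers, reads may be copies of 1 molecule, which these intervals do not cover. Folds of single genes and the intervals of single genes and gene pairs were tested on simulated counts with counting error only. The correction and the shares were not tested in this way.

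The members and gene lists were chosen with earlier results of these data known. Genes named are the 10 members, Tecrl, up to 6 genes of each list with the greatest absolute log2 ratio from a mean of 5 CPM upwards, and genes of the marker lists; the CAGCTG form and gene pairs other than the slow-to-fast ones were chosen after values were seen. Alternatives were scaling by total count, by DESeq2 1.42.0 size factors or without mitochondrial genes, FPKM, a pseudocount of 0.1 or 1, a filter at 0 or 5 CPM, a 2-fold rule, the correction, and other length scales for shares.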

Additional observations from a re-analysis of the deposited data

How the results depend on the processing

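Leaving out a replicate was not possible. No paired analysis was possible because both genotypes were sequenced once. The count of 1 member at least 1.5-fold higher became 2 when libraries were scaled without mitochondrial genes, where Mybpc1 reached a log2 ratio of 0.59, and 2 after the length and GC correction, where Myl3 reached 0.76. It was 1 under the other 8 alternatives, and the count of 1 member lower was 1 under all 10. The Myl3 to Myl1 ratio of 1.80 became 1.85 and the Mybpc1 to Mybpc2 ratio of 1.54 became 1.41 after the correction; the cause was not tested. The direction of log2 ratios was kept under all 7 alternatives for 9 members, and Mylpf turned to 0.15 after the correction. Among the 9, Mybpc2 came to only -0.0025 after the correction and Myl4 to only 0.02 by FPKM. For these genes a kept sign says little, and the interval of the Myl4 ratio ran from 0.791 to 1.44. Mybph lay between -1.44 and -1.15, and Myl6b between 0.95 and 1.26. Depth limits Myl4 and Myl6b.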

Other observations

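Genes that control fiber type were mixed. Of 16 listed regulators, all past the expression minimum, 2 reached 1.5-fold on the higher side and 2 on the lower, with a median log2 ratio of 0.05, beside 10.5% and 4.94% of all genes. Corrected for length and GC content, 1 was higher and 2 were lower, beside 4.63% and 3.68% of all genes. Besides Tead1, the gene on the higher side lay under the mean of 5 CPM set for naming. The TEAD factors, which bind MCAT elements, stood on opposite sides: Tead1 had 210 counts in flox and 405 in the scko library, a ratio of 2.30 (1.94 to 2.73), and Tead4 had 151 and 80 counts, a ratio of 0.632 (0.476 to 0.834). Their log2 ratios of 1.16 and -0.61 came to 0.72 and -0.45 after the correction, where Tead4 no longer reached 1.5-fold. Eya3, a transcriptional coactivator, was at 0.607 of the flox library (0.514 to 0.716), and Mef2c at 0.705 (0.675 to 0.736); corrected, Eya3 stood at a log2 ratio of -0.79 and Mef2c at -0.97, past 1.5-fold. Mef2a stood at a log2 ratio of 0.45 and Ppargc1a, a coactivator of oxidative metabolism, at 0.36, and these came to 0.09 and -0.08 once corrected.

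Of 6 genes of myosin folding and thick filament assembly, 1 was at least 1.5-fold higher, beside 10.5% of all genes. This was the chaperone Hsp90aa1, at 12.5 CPM in flox and 24.6 CPM in the scko library, a ratio of 1.965 (1.67 to 2.31). The myosin chaperone Unc45b had a log2 ratio of -0.14, the methyltransferase Smyd1 -0.02, and the M-band proteins Myom1 and Myom2 stood at 0.19 and -0.20.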
